A study of Homo sapiens with 31 samples.

Results

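Liver cells secrete most of the proteins of blood plasma, and the genes of 42 of these proteins other than albumin are described here by the microRNAs (miRNAs) found joined to their RNA. The genes were chosen by name among the secreted products of hepatocytes, with alpha-fetoprotein, fibronectin and the apolipoproteins left out as well, and they cover protease inhibitors, clotting and fibrinolysis proteins, carriers, the inter-alpha-inhibitor and fetuin families, complement proteins, and a hormone precursor with growth factors. An interaction belonged to a gene when its listed gene symbol equalled that gene's. All 42 symbols were found in RefSeq, no listed Entrez number differed from it, and 0 further interactions stood under a member's Entrez number with another symbol. Of 42 genes, 22 had at least 1 interaction, and these held 104 of the 32712 interactions listed for the series, or 0.318% (95% Wilson interval, 0.262 to 0.385). The table lists fewer interactions than the study gives for these cells, so shares and empty counts are those of the table. Of the 21961 interactions with a gene symbol they were 0.474% (0.391 to 0.573).

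The study used Huh-7.5, an established human hepatoma line, and purified Argonaute (AGO) after ultraviolet cross-linking together with the RNA it held. Of 31 libraries, 19 were made by standard AGO HITS-CLIP, with 4 from cells treated with an LNA (locked nucleic acid) that inhibits miR-122, 4 from cells treated with miravirsen, another inhibitor of that miRNA, 4 from mock-transfected and 7 from untreated cells. The other 12 were CLEAR-CLIP libraries of 2 per condition. Cells that over-expressed HSPC117, an RNA ligase, were treated with low RNAse A, high RNAse A or RNAse T1, cells with HSPC117 siRNA with low RNAse A, and cells with neither change with low RNAse A, with T4 RNA ligase in 1 condition and without ligase in all others. These libraries were pooled by the authors into a single table, so that no interaction can be traced to a condition, there are no replicates, and neither conditions nor replicate error can be given. The label of a liver line was met by 1107 interactions of the hepatocyte miRNA miR-122-5p and 33 at ALB, the albumin gene, while RNA levels were not measured in the table. The table counts 35811 chimeric reads, the depth of each library cannot be read from it, and 31075 of its interactions rested on a single read.

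A miRNA guides AGO to RNA mainly through its seed, the bases next to its 5′ end, and AGO then lowers the stability and translation of the mRNA. Pairing of the miRNA 3′ part can add to seed pairing or partly stand in for it. Within AGO a miRNA can be joined end to end with the RNA that it holds, the read then covers both, and such a chimera names the miRNA and its target region together. Seed matches are graded from 8mer, the longest, through 7mer-m8 and 7mer-A1 to 6mer and offset 6mer, and these 5 kinds are called canonical here. Plasma protein mRNAs are among the most abundant of the hepatocyte, and the number of chimeras at a gene depends on how much of its RNA there is as well as on miRNA binding, so fewer interactions and less RNA cannot be told apart.

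The members' interactions involved 57 miRNAs, of which 51 were found by name in RefSeq (GRCh38.p14). The sequences are those of miRNAs with at least 3 interactions at the members and of interactions with at least 2 reads or with an 8mer or 7mer-m8 match in mature mRNA. Added are 3 that share a seed with miR-16-5p or miR-17-5p, while miR-26b-5p, which has the seed of miR-26a-5p, is not printed. miR-320a, which had the most interactions with 12, was not among the 51 and is named only. Each sequence runs 5′ to 3′ with the seed, bases 2 to 8, in capitals.
miR-16-5p: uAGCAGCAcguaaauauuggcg
miR-15b-5p: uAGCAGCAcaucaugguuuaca
miR-103a-3p: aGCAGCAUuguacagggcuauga
miR-17-5p: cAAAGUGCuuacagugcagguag
miR-20a-5p: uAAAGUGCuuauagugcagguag
miR-93-5p: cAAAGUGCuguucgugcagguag
miR-92a-3p: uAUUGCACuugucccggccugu
miR-122-5p: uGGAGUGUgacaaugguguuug
miR-27a-3p: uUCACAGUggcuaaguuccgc
miR-21-5p: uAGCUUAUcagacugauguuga
miR-146a-5p: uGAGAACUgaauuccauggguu
miR-1269a: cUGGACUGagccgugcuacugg
miR-93-3p: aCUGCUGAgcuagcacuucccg
miR-26a-5p: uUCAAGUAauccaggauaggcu
miR-15b-5p and miR-16-5p have the same seed and made 9 of the members' interactions together. The seed of miR-103a-3p (6 interactions) holds the last 6 bases of that seed, shifted by 1 base. miR-17-5p, miR-20a-5p and miR-93-5p also share a seed and made 8 interactions. In all, 8 seeds were shared by more than 1 of the 51 miRNAs. The table carries no target sequence, and none is printed.

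Interactions were spread unevenly over the members. IGF2, which encodes an insulin-like growth factor of fetal growth, had 27 of 104, or 26.0% (18.5 to 35.1), and 42 of the 7069 genes in the table, IGF2 included, had at least as many. TF, the iron carrier transferrin, followed with 12, and 229 genes, TF and IGF2 included, had at least that number. SERPINA1, the elastase inhibitor alpha-1-antitrypsin, had 8. AMBP, the precursor of alpha-1-microglobulin and bikunin, had 7, and ITIH2, a heavy chain that is joined to bikunin, had 6. There were 4 each at AGT (angiotensinogen), AHSG (fetuin-A), SERPING1 (the C1 inhibitor), F5 (clotting factor V), C3 (the central complement protein) and FGA (the fibrinogen alpha chain). These 11 genes held 84 of the 104 interactions. A further 6 genes had 2 or 3 interactions, with 3 each at RBP4, FGB and C5 and 2 each at A2M, TTR and VTN. The remaining 5, with 1 each, were HPX, SERPIND1, ITIH1, PLG and FGG. The median was 3.50 over the 22 genes with interactions, against 2.00 over other genes of the table, of which a gene enters only with at least 1. The plot of interactions by member shows these counts by role.

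**Figure D1:**
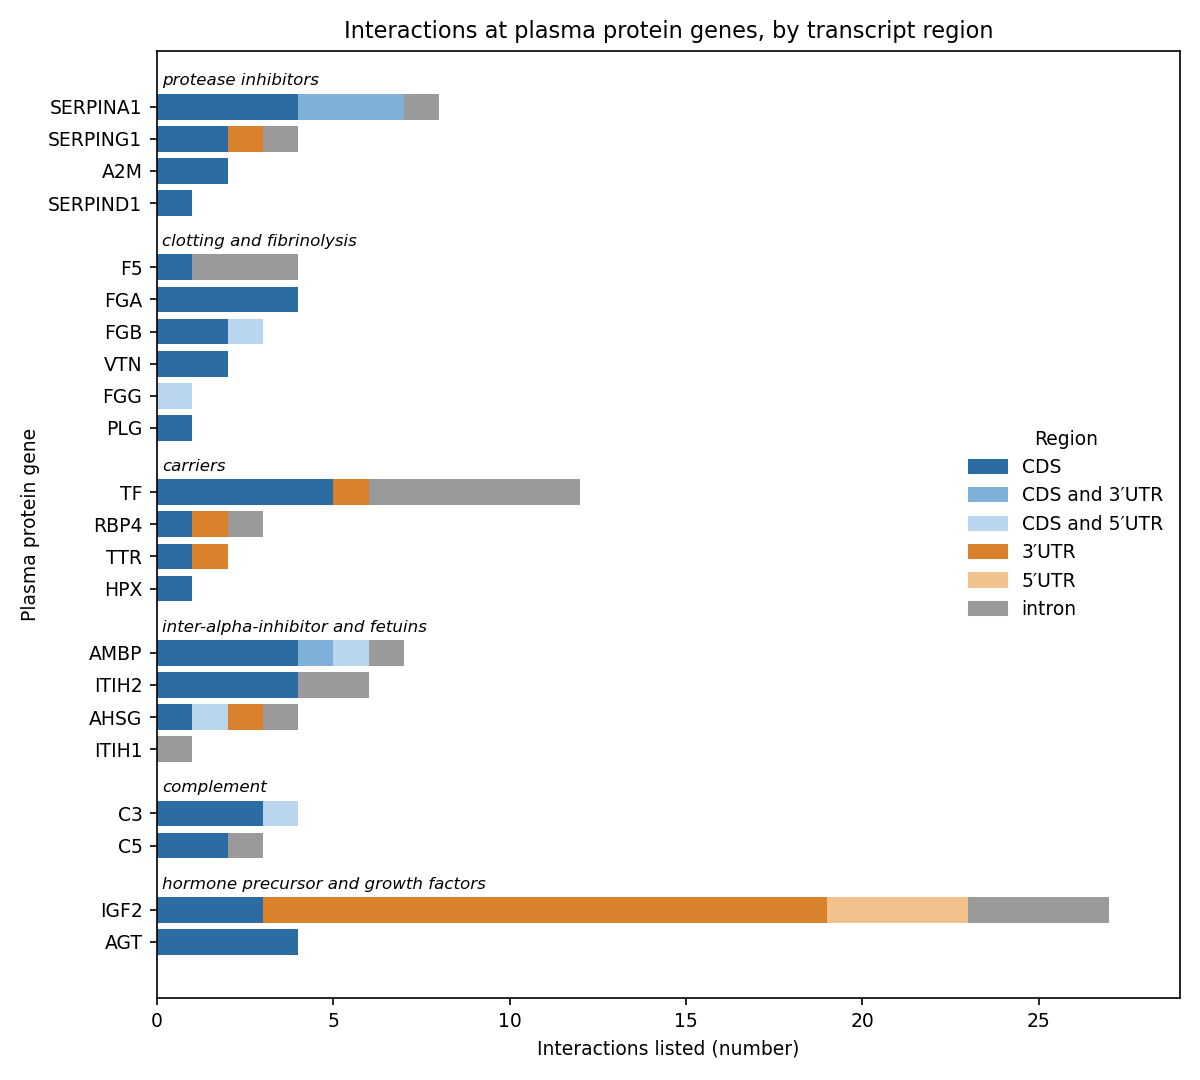
Number of listed interactions (x axis) at each of the 22 plasma protein genes that had any (y axis, grouped by role), with the bar divided by transcript region and CDS standing for coding sequence. IGF2 has 27, of which 16 are in the 3′UTR, while most bars of the other genes are coding sequence.

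No interaction was listed for 20 members, which allows up to 3 counts, or 0.00917% of the table, for each. These were SERPINA3, SERPINC1 and SERPINF2 among the inhibitors, F2, F7, F9, F10, F11, F12 and KNG1 among the clotting proteins, GC, CP, HP and ORM1 among the carriers, ITIH3, ITIH4 and FETUB, the complement genes C4A and CFB, and IGFBP1. Clotting, the largest role, had 7 such genes of 13, near the 20 of 42 over all members. Carriers had 4 of 8, complement 2 of 4, and IGFBP1 was 1 of 3 in its group. Protease inhibitors had 3 of 7, as did the inter-alpha-inhibitor and fetuin families. C4A, HP and ORM1 have near-identical copies in the genome (C4B, HPR and ORM2), and fragments that mapped to several places had been dropped by the authors. The part of that rule in these counts was not tested. C4B and ORM2 had 0 interactions too, and HPR had 1.

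Most of the members' interactions lay in mature mRNA. Coding sequence or a UTR held 82 of 104, or 78.8% (70.0 to 85.6), against 42.6% (41.9 to 43.2) of 21857 interactions at all other genes, a difference of 36.3 percentage points (95% Newcombe interval, 27.5 to 43.1). Introns alone held 21.2% (14.4 to 30.0) of the members' interactions, against 55.8% (55.2 to 56.5) at other genes. Coding sequence, alone or together with a UTR, took up 57 of 104, or 54.8% (45.2 to 64.0), against 22.4% (21.8 to 22.9). A 5′UTR was named for 9 of the members' interactions, or 8.65% (4.62 to 15.6), against 3.02% (2.81 to 3.26). Interactions at 1 gene share its RNA, so these intervals cover counting error only and are too narrow as a measure of the spread between genes, and they were not adjusted for the number of shares set side by side.

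IGF2 differed from the other members in its 3′UTR share. It had 16 of its 27 interactions in the 3′UTR alone, or 59.3% (40.7 to 75.5), with 4 in the 5′UTR, 3 in coding sequence and 4 in introns. Without it, the 3′UTR alone held 5 of 77 interactions, or 6.49% (2.81 to 14.3), against 17.7% (17.2 to 18.2) at other genes. IGF2 exceeded the other members by 52.8 points in this share (32.6 to 69.4). The 5 were 1 each at AHSG, RBP4, SERPING1, TF and TTR. Coding sequence then held 54 of 77, or 70.1% (59.2 to 79.2). Among the 59 interactions in mature mRNA at members other than IGF2, 54 touched coding sequence, or 91.5% (81.6 to 96.3), against 52.6% (51.6 to 53.6) of 9303 at other genes, a difference of 38.9 points (29.0 to 43.8). The lengths of the coding sequences and UTRs were not measured here. The plot of region shares shows the members with and without IGF2.

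**Figure D2:**
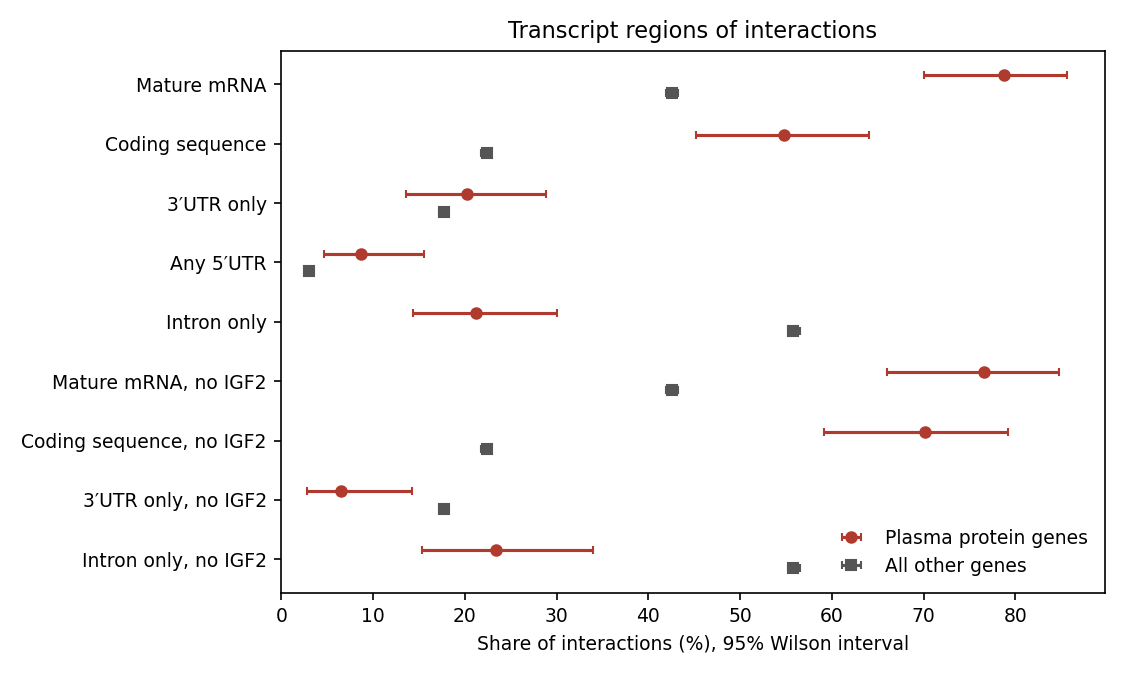
Share of interactions in each transcript region (x axis, percent, with 95% Wilson intervals), with the plasma protein genes as circles and all other genes as squares. The 3′UTR share of the members is 20.2% with IGF2 and 6.49% without it, while the mature mRNA share stays at 78.8% and 76.6%.

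Among the protease inhibitors, 4 of 7 genes had interactions, 15 in all, and 12 of these touched coding sequence. SERPINA1 carried 4 in coding sequence, 3 over both coding sequence and 3′UTR, and 1 in an intron. The interaction of miR-1269a at SERPINA1 had 2 reads and an 8mer match in coding sequence (chr14:93919106-93919181, hg18, minus strand), with a predicted duplex energy of -29.7 on the deposited RNAhybrid scale, where lower is more stable. miR-320a was listed in that same region, with a match of 5 bases and a single read. At SERPING1, miR-320a appeared in an intron and in the 3′UTR, and the other interactions were those of miR-183-5p and miR-19a-3p in coding sequence. None of the 4 had a canonical match. A2M, a broad protease trap, had 2 interactions in coding sequence, and SERPIND1, heparin cofactor II, had 1 there.

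The clotting and fibrinolysis genes had 15 interactions at 6 of 13 members. All 3 fibrinogen chains were among them, with 4 at FGA, 3 at FGB and 1 at FGG, and all 8 touched coding sequence. miR-146a-5p had 2 reads at an 8mer match in the FGA coding sequence (chr4:155726286-155726361, minus strand, energy -24.4), and miR-23a-3p overlapped it without any seed match. miR-21-5p had a 7mer-m8 match further upstream in FGA, with a weak predicted energy of -13.4. At FGB, miR-26a-5p had 3 reads in a region over the 5′UTR and coding sequence (chr4:155708245-155708320, plus strand). Its strongest match there, a 7mer-A1 with a bulged G between miRNA positions 4 and 5, began at position 15 of the region, whereas the predicted duplex of energy -20.7 lay at positions 49 to 75. FGG had 1 interaction, an 8mer of miR-27a-3p over 5′UTR and coding sequence with energy -25.0. miR-27a-3p also had a 7mer-m8 match in coding sequence of PLG, the gene of plasminogen, with energy -20.6. F5 had 3 of 4 interactions in introns, which held 55.8% of interactions at other genes. None of its 4 had a canonical match, and neither did any of the 3 at FGB. VTN (vitronectin) had 2, both in coding sequence.

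The carriers had 18 interactions at 4 of 8 genes, and TF alone had 12, with 5 in coding sequence, 1 in the 3′UTR and 6 in introns. miR-93-3p had an 8mer match in TF coding sequence with energy -26.5, and miR-17-5p and miR-618 had 8mers in TF introns. The most stable duplex predicted for any member was at HPX, the gene of the haem carrier hemopexin. There miR-103a-3p had 2 reads and an 8mer in coding sequence (chr11:6417972-6418047, minus strand, energy -34.4), the single interaction of that gene. RBP4, the retinol carrier, had 1 interaction each in coding sequence, 3′UTR and intron. TTR, the thyroxine carrier transthyretin, had 1 in coding sequence and 1 in the 3′UTR, both with a mismatched seed.

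AMBP, ITIH2, AHSG and ITIH1 carried all 18 interactions of the inter-alpha-inhibitor and fetuin families. Of these 18, 8 were canonical, beside 28 of 104 over all members and 33.0% of interactions at other genes. ITIH2 had 4 in coding sequence and 2 in introns, and 2 of its coding interactions were those of miR-122-5p. One had 2 reads and a 7mer-A1 match (chr10:7813778-7813853, plus strand, energy -23.2), and the other had 1 read and a bulged 7mer-m8 match. miR-130a-3p had an 8mer in an ITIH2 intron. At AHSG, miR-320a had 3 reads in a region over the 5′UTR and coding sequence (chr3:187813610-187813685, plus strand, energy -28.7) with a mismatch at miRNA position 3 in a 7mer-m8 match. AMBP had a 7mer-m8 match of miR-16-5p in coding sequence with energy -20.4 and an 8mer of miR-103a-3p in an intron. The single interaction of ITIH1 was a 7mer-m8 match of miR-222-3p in an intron.

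The complement genes C3 and C5 had 4 and 3 interactions, and none of the 7 was canonical. At C5, the precursor of the anaphylatoxin C5a, miR-92a-3p had 2 reads in coding sequence (chr9:122822174-122822249, minus strand, energy -26.7) at an 8mer match with a mismatch at miRNA position 7. C3 had its 4 interactions in coding sequence, 1 of them over the 5′UTR as well. AGT, the precursor of the angiotensins, also had all 4 in coding sequence, of which those of miR-210 (7mer-A1) and miR-24-3p (6mer) were canonical.

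At IGF2 the interactions ran from introns and the 5′UTR through coding sequence to the far end of the 3′UTR, as the plot along IGF2 shows. They involved 20 miRNAs. Only 4 of 27 were canonical, or 14.8% (5.92 to 32.5), against 33.0% (32.4 to 33.7) of interactions at other genes, and 9 of 27 had no seed match, or 33.3% (18.6 to 52.2), against 13.4% (12.9 to 13.8). Set against the other members, the canonical share of IGF2 differed by -16.4 points with an interval that included 0 (-30.5 to 3.58), and the share without a seed match by 21.6 points (4.39 to 41.2). In its 3′UTR 1 of 16 was canonical, a 7mer-A1 match of miR-19b-3p, or 6.25% (1.11 to 28.3), against 42.1% (40.5 to 43.6) of 3′UTR interactions at other genes. Among the 75 other genes with at least 20 interactions, the canonical share ran between 6.17% and 65.0% with a median of 29.0%, and 8 were at or below the share of IGF2. The share without a seed match had a median of 15.0% over these genes, and 5 were at or above IGF2. Of these 75 genes 5 had as large a share in mature mRNA as the 85.2% of IGF2, with a median of 7.69%.

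**Figure D3:**
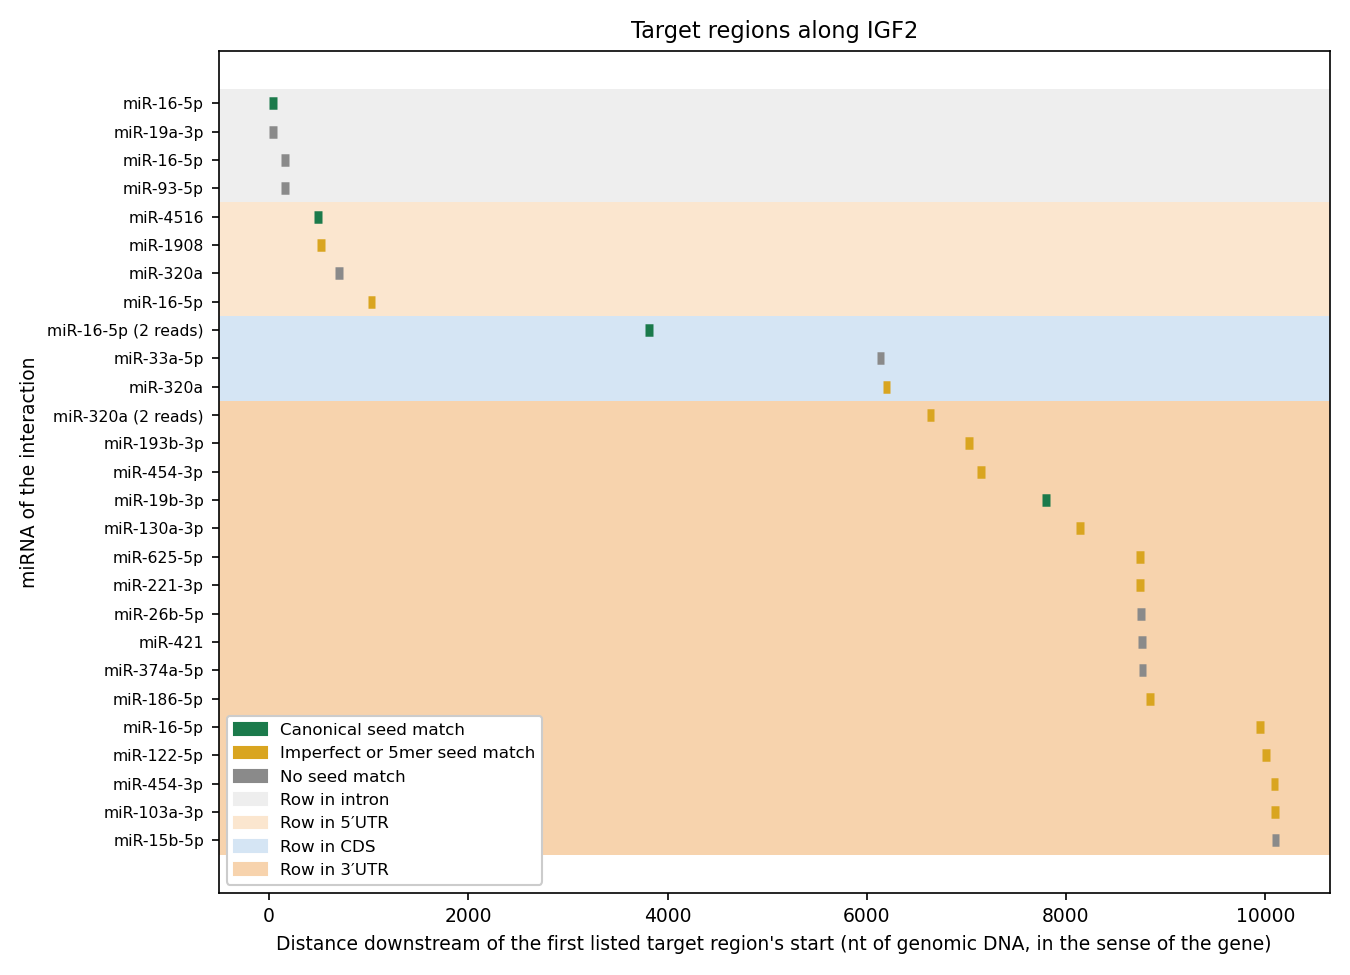
Target regions of the 27 IGF2 interactions, each 75 nt long, by distance along the gene in its sense direction from the start of the first listed region (x axis, nt of genomic DNA), 1 interaction per row with its miRNA (y axis). Bars are coloured by seed match, rows are shaded by transcript region, and 16 rows fall in the 3′UTR, with 6 close together.

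A pair of IGF2 interactions had 2 reads. miR-16-5p had a 7mer-m8 match at position 26 of a region in coding sequence (chr11:2113211-2113286, minus strand), next to a predicted duplex of energy -26.2 mapped at positions 5 to 24. miR-320a had a 6mer-A1 match at position 60 of a region in the 3′UTR (chr11:2110386-2110461), away from its predicted duplex of energy -24.4 at positions 5 to 28. miRNAs of the miR-15/16 family made 6 of the 27 IGF2 interactions, or 22.2% (10.6 to 40.8), against 3.90% (1.33 to 10.8) at the other members and 5.67% (5.37 to 5.98) at other genes. Of these 6, 5 were miR-16-5p, with 2 in introns and 1 each in the 5′UTR, coding sequence and 3′UTR. The only canonical matches of the family here were that 7mer-m8 in coding sequence and a 6mer of miR-16-5p in an intron. The family was picked out by its count at IGF2, and counts this small move by much with a single interaction. IGF2 lies beside INS and shares exons with the read-through gene INS-IGF2, and only interactions listed under the symbol IGF2 were counted.

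Places where target regions of different miRNAs overlapped were frequent at IGF2. There were 14 such places at 5 members, with 7 at IGF2, 3 at TF, 2 at SERPINA1 and 1 each at AMBP and FGA. The largest held 6 miRNAs in 177 nt of the IGF2 3′UTR (chr11:2108183-2108360), where miR-186-5p, miR-221-3p, miR-26b-5p, miR-374a-5p, miR-421 and miR-625-5p had 1 read each and none had a canonical match. Not all of these overlapped each other. The region of miR-186-5p, which ends at 2108258, met only that of miR-374a-5p, from 2108257, at the edge. Another 3, miR-103a-3p, miR-15b-5p and miR-454-3p, shared 83 nt nearer the 3′ end (chr11:2106923-2107006), also without a canonical match. miR-122-5p and miR-16-5p overlapped beside that place (chr11:2107018-2107154). The remaining IGF2 places paired miR-320a with miR-33a-5p in coding sequence, miR-1908 with miR-4516 in the 5′UTR, and miR-16-5p with miR-93-5p and with miR-19a-3p in introns.

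In SERPINA1, miR-185-5p, miR-320a and miR-423-5p lay within 82 nt over the end of coding sequence (chr14:93914466-93914548), and the 6mer of miR-423-5p was the 1 canonical match. In TF, miR-194-5p, miR-33b-5p and miR-93-3p lay within 96 nt of coding sequence (chr3:134960775-134960871), with the 8mer of miR-93-3p. Both other TF places were in introns, with miR-33a-5p beside miR-93-5p and miR-378a-3p beside miR-574-3p, and none of these was canonical. In AMBP, miR-16-5p and miR-103a-3p, whose seeds overlap, had target regions that met in 131 nt over the 5′UTR and coding sequence (chr9:115880224-115880355). Overlapping places held 35 of 104 member interactions, or 33.7% (25.3 to 43.2), against 2398 of 21857 at other genes (10.6% to 11.4%). The share was 70.4% (51.5 to 84.1) for IGF2, against 24.3% (22.6 to 26.0) over the 75 other genes with at least 20 interactions. Within mature mRNA it was 65.2% (44.9 to 81.2) for IGF2, against 44.9% (40.9 to 49.0) for those genes, and these intervals overlap. Those 75 genes were chosen by their total of interactions. In mature mRNA they had 572 together and IGF2 alone had 23, so numbers per gene were not matched there. For the 10 members with 4 to 12 interactions it was 28.1% (18.1 to 40.8), against 12.2% (11.5 to 12.9) over 1553 other genes of that range. Within mature mRNA these shares were 28.6% (17.2 to 43.6) and 21.9% (20.6 to 23.2), and the members' interval holds the value of the other genes. Numbers per gene in mature mRNA were not matched here either.

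Canonical matches were found for 28 of 104 member interactions, or 26.9% (19.3 to 36.2), against 33.0% (32.4 to 33.7) at other genes, and the difference of -6.10 points had an interval that included 0 (-13.7 to 3.15). There were 9 of the 8mer kind and 6 of the 7mer-m8 kind, with 7 6mers and 3 each of 7mer-A1 and offset 6mer. Within mature mRNA 20 of 82 were canonical, or 24.4% (16.4 to 34.7), against 36.4% (35.4 to 37.4), a difference of -12.0 points (-20.1 to -1.66). Without IGF2 that share was 28.8% (18.8 to 41.4), and the interval of the difference then included 0 (-17.6 to 5.02). In coding sequence the shares were 28.1% (18.1 to 40.8) for members and 32.0% (30.7 to 33.3) for other genes. In introns they were 36.4% (19.7 to 57.0) of 22 and 30.7% (29.9 to 31.5).

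Imperfect seeds outnumbered canonical ones at the members, as the plot of seed matches shows. A single mismatch was listed for 34 interactions, or 32.7% (24.4 to 42.2), against 29.4% (28.8 to 30.0) at other genes, and 3 of the 34 mismatches were G:U pairs. A bulge was listed for 13, or 12.5% (7.45 to 20.2), against 16.2% (15.7 to 16.7). No seed match was listed for 18, or 17.3% (11.2 to 25.7), against 13.4% (12.9 to 13.8), and without IGF2 this share was 11.7% (6.27 to 20.7). Every one of these intervals at the members holds the value at other genes.

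**Figure D4:**
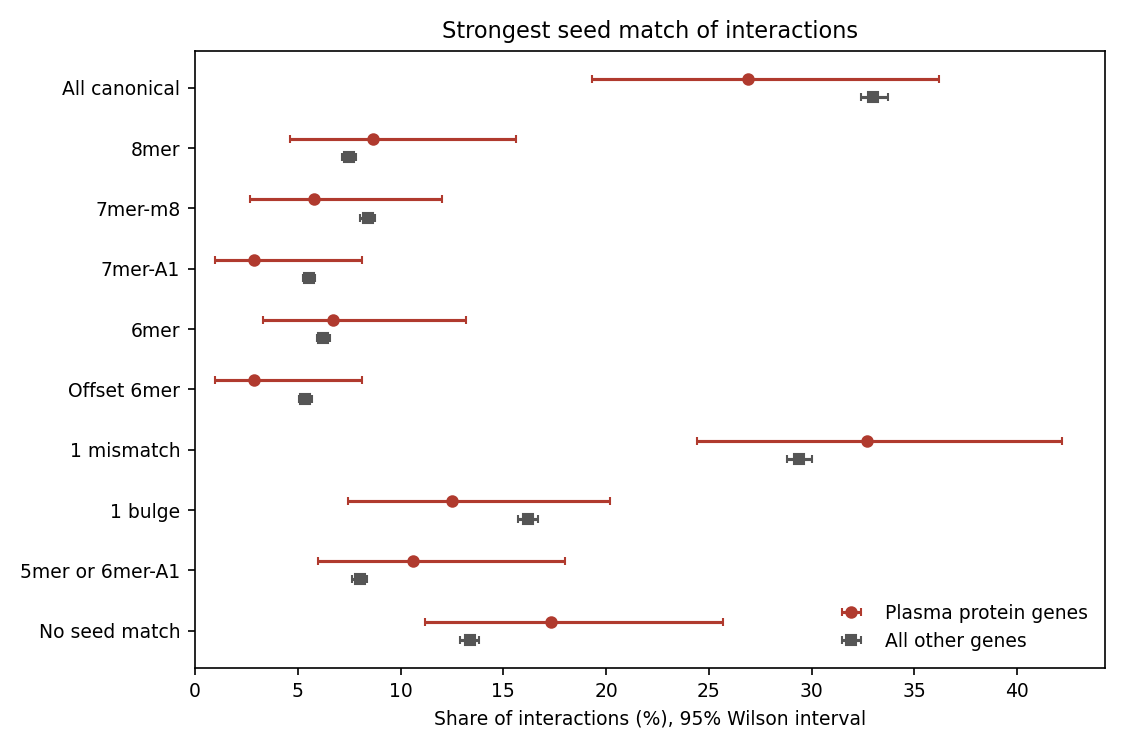
Share of interactions with each kind of strongest seed match (x axis, percent, with 95% Wilson intervals), with the plasma protein genes as circles and all other genes as squares. For each single kind and for all canonical matches together the interval of the members covers the value of the other genes.

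Canonical matches at the members began near the ligation point. Of 28, 24 began in the first 37 of the 75 positions, or 85.7% (68.5 to 94.3), against 82.9% (82.0 to 83.7) at other genes and 53.6% for an even placement. Their first positions ran between 11 and 66 with a median of 24.0. The listed match lay in the predicted duplex for 25 of 28 and began beyond its mapped end for 3, miR-24-3p at AGT, miR-30c-5p at AHSG and miR-16-5p in the coding sequence of IGF2. Of the 58 imperfect or shorter matches, 20 began outside the predicted duplex, so the energy of an interaction need not be that of its listed match.

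Few interactions were seen more than once. At least 2 reads supported 9 of 104 at the members, or 8.65% (4.62 to 15.6), against 4.80% (4.52 to 5.09) at other genes, and the interval of the difference included 0 (-0.190 to 10.8). All 9 lay in mature mRNA, 6 of them in coding sequence alone. They were 1 each at SERPINA1, FGA, FGB, HPX, ITIH2, AHSG and C5 and 2 at IGF2, and 5 of 9 were canonical. The other 95 rested on a single read.

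Of the miRNAs at the members, 5 had at least 4 interactions there. miR-320a had 12, or 11.5% (6.72 to 19.1), against 5.99% (5.69 to 6.32) at other genes, spread over 7 members with 3 each at IGF2 and SERPINA1, and 2 of the 12 matches were canonical. In mature mRNA alone it made 9.76% of 82 member interactions and 5.99% of those at other genes. miR-16-5p had 8, or 7.69% (3.95 to 14.4), against 3.76% (3.51 to 4.02), and 5 of these were at IGF2. miR-103a-3p had 6, or 5.77%, against 1.72% (1.56 to 1.90), a difference of 4.05 points (0.945 to 10.3), at AMBP, AGT, C5, HPX and IGF2. Counts this small move by much with a single interaction, and these miRNAs were picked out by their counts at the members.

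miR-17-5p, the miRNA of the proliferation-associated miR-17-92 cluster, had 5, or 4.81% (2.07 to 10.8), against 7.79% (7.44 to 8.15). miR-92a-3p, of the same cluster, also had 5, against 4.79% (4.51 to 5.08) at other genes, and none of the 5 was canonical. miR-122-5p had 3, at ITIH2 and IGF2, or 2.88% (0.986 to 8.14), against 3.31% (3.08 to 3.55), and the interval of the difference was wide (-2.34 to 4.84). The libraries with inhibited miR-122 are pooled with the rest, and their part in this share cannot be told apart. Reads that fitted several miRNAs had been given to a random one of these before deposit. Of the 57 miRNAs, 39 had a single interaction at the members.

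Predicted duplexes at the members had a median energy of -21.8 (quartiles -25.5 and -17.2), against -19.5 (-23.4 and -15.9) at other genes. Within mature mRNA the medians were -21.8 and -20.0. By role, the median was -25.5 for protease inhibitors, -24.7 for complement, -23.1 for the inter-alpha-inhibitor and fetuin families, -21.1 for carriers, -20.7 for clotting and -19.3 for the group of IGF2 and AGT. miR-320a made 12 of the member interactions with a median of -26.1, and without it the medians were -21.0 at the members and -19.1 at other genes. Among the 15 protease inhibitor interactions, miR-320a had 3 at SERPINA1, 2 at SERPING1 and 1 at A2M. No role median was taken without it, so its part in the order of the roles was not tested. The complement median rests on 7 interactions at 2 genes. Pairs in the seed averaged 5.13 ± 1.69 at the members and 5.38 ± 1.59 at other genes (SD over interactions, n = 104 and 21857), and pairs from miRNA position 9 onward averaged 8.92 ± 2.62 and 8.88 ± 2.54. The spread over single interactions exceeded each of these differences, but it does not measure the error of a mean or median, and none of the differences was tested. The plot of duplex energy shows the values by role.

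**Figure D5:**
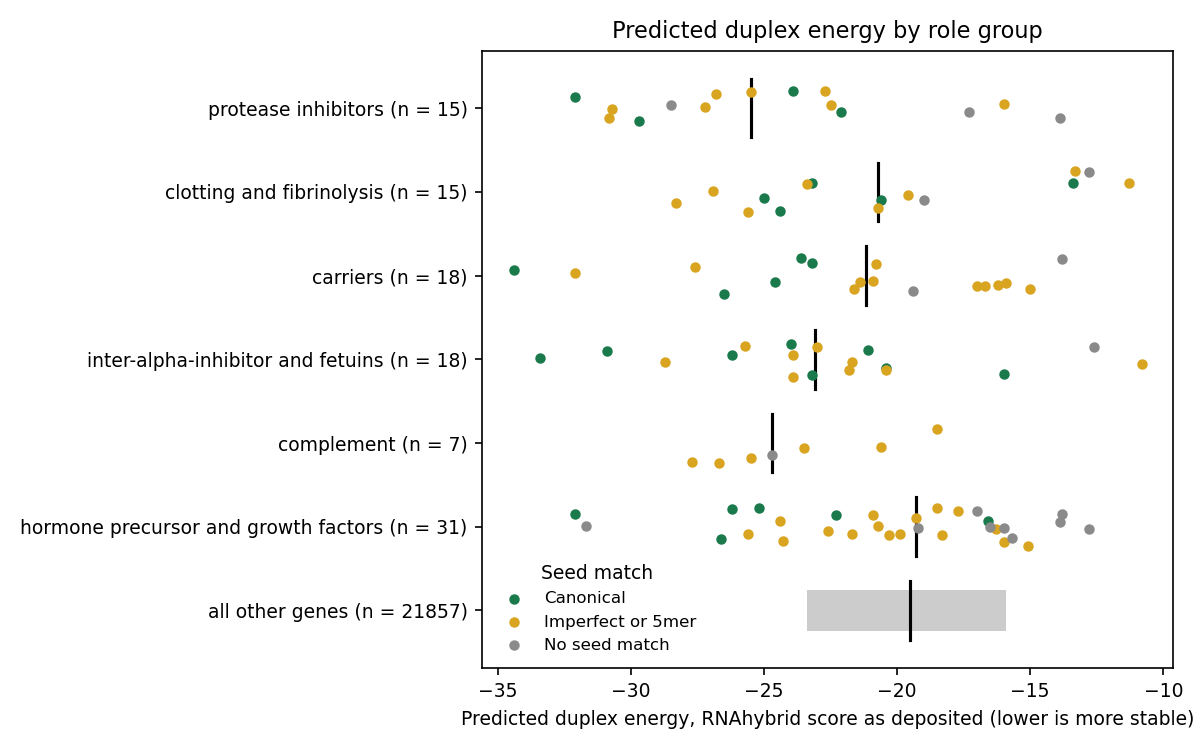
Predicted duplex energy of each member interaction (x axis, RNAhybrid score as deposited, lower is more stable) by role group (y axis), coloured by seed match, with black lines at medians and the grey bar between the quartiles of all other genes. The group medians lie between -25.5 for protease inhibitors and -19.3 for the group of IGF2 and AGT, with -19.5 for all other genes. Protease inhibitors include interactions of miR-320a at SERPINA1, SERPING1 and A2M.

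The authors had sorted duplexes into 7 classes by k-means on their pairing. Class 4, in which seed pairing is scarce, held 13 of 104 member interactions, or 12.5% (7.45 to 20.2), against 9.95% (9.56 to 10.4) at other genes, and the interval of the difference included 0 (-2.51 to 10.3). Class 6 was the most frequent at the members, with 22.1%, against 20.0% (19.5 to 20.6). Class 3 was the least frequent, with 6.73% (3.30 to 13.2), against 13.1% (12.6 to 13.5), with a difference of -6.36 points (-9.82 to 0.171). Class 1 held 16.3% and 13.2%, class 2 13.5% and 18.4%, class 5A 13.5% and 10.8%, and class 5B 15.4% and 14.5%, at members and other genes in each pair, and the interval of each difference included 0.

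A list of 55 other secreted liver proteins was counted in the same way. Of these, 17 genes had 44 interactions, led by PROS1 (the anticoagulant protein S) and TFPI (an inhibitor of the clotting start) with 8 each and CLU and MASP1 with 6 each. Mature mRNA held 59.1% (44.4 to 72.3) of them, between the members' 78.8% and the 42.5% of the remaining genes, and 29.5% (18.2 to 44.2) were canonical. At least 2 reads supported 2 of the 44, beside 4.80% of interactions at all genes other than the members. The other 38 genes had 0, among them the acute-phase genes CRP, SAA1 and SAA2. Of the membrane attack complex, C6, C8B, C8G and C9 had 0 and C8A had 1.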

How the data were processed

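RNA held by AGO in Huh-7.5 cells was sequenced in 31 libraries under 10 conditions. Per the submitters' processing notes, CASAVA 1.8.2 and Bowtie were used with the hg18 genome, and no version of Bowtie is stated. The authors dropped fragments that mapped more than once and collapsed PCR duplicates. Chimeras of a miRNA with overlapping fragments were merged into interactions, each with a target region of 75 nt, and RNAhybrid predicted the duplex, with seed pairing forced where a match was found. The authors deposited 1 table of miR-first interactions. It gives N, a deposited count of cloned reads that was not normalized, and the RNAhybrid minimum free energy, a deposited score. Neither the origin of its gene annotation nor whether coordinates count from 0 or 1 is stated in what was read here.

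Each interaction was counted once, by Python 3.11.15 with numpy 2.4.6, pandas 2.3.3 and scipy 1.17.1, and plots used matplotlib 3.10.9. A region counted as mature mRNA when any part was named CDS, 3′UTR or 5′UTR. Duplex maps were taken to begin at miRNA position 2. Places were runs of overlapping target regions of at least 2 miRNAs, in which each region need only touch its neighbour. The paper states that target regions sometimes reached past the sequenced reads. Shares have 95% Wilson and differences 95% Newcombe intervals. These were tested on simulated independent counts only, which leave out the dependence between interactions at 1 gene. No test between groups was run, since libraries are pooled. Members, lists, roles and alternatives were chosen with earlier results of these data known. Named were members and miRNAs with at least 4 interactions, every interaction with at least 2 reads, 8mer and 7mer-m8 matches in mature mRNA, and overlapping places. Intronic and other matches, and members with fewer interactions, were named after their values were seen. Alternatives weighted by reads, kept 1 interaction per miRNA and gene, left out IGF2, or changed thresholds and regions. Values of single libraries and miR-last chimeras were not analysed here.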

Additional observations from a re-analysis of the deposited data

How the results depend on the processing

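Over 10 results and 34 alternatives, 26 values stayed within the interval of the reported value, within 1.5 times a count, or, for the energy, within the SD of the interactions, and 8 moved outside. The SD of single interactions is a wide bound for a median. By it the median energy of -21.8 counted as unmoved although it became -26.2 over 9 interactions with at least 2 reads (-23.4 at other genes). The 104 interactions became 9 when only those with at least 2 reads were kept, and the 44 at other plasma protein genes became 2. The canonical share of 26.9% became 55.6% of 9 interactions with at least 2 reads (53.5% at other genes), 17.3% with 8mer, 7mer-m8 and 7mer-A1 matches only (21.4%), and 14.3% in 3′UTR interactions only (42.1%), of which 16 of 21 were at IGF2. Within mature mRNA it became 14.6% with those 3 kinds only (24.0%). The share with at least 2 reads of 8.65% (4.80% at other genes) became 1.92% at a minimum of 3 reads (1.63%). The share of canonical matches near the ligation point of 85.7% became 60.7% in the first 25 positions (61.5%). Fewer match kinds and fewer positions can only lower the share that counts them. A higher minimum of reads can only lower a count of interactions or the share that reaches it. The cause of the moves of the canonical share with at least 2 reads and in 3′UTR interactions was not tested. The share of mature mRNA exceeded that at other genes by 33.5 to 37.8 points under its 5 alternatives. Without IGF2 the interval of the difference in canonical share within mature mRNA included 0. The alternative that left out miR-320a was chosen after seeing the data. No paired analysis was possible because the interactions are pooled over libraries and no test was run, and leaving out single libraries was not possible for the same reason. Most of the 104 interactions rested on a single read, and the intervals of several differences, that of the canonical share among them, included 0.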
